A study of Mus musculus with 6 samples.

Results

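The genes of cholesterol and fatty acid synthesis were examined in CD4-CD8- double negative (DN) thymocytes, the early precursors of the thymus that carry neither coreceptor. The members were 30 genes listed by name: 7 enzymes of the mevalonate pathway, 11 of the sterol pathway, 6 genes of the sterol-sensing SREBP system and 6 enzymes of fatty acid synthesis. They were found among 41457 genes in each table, and all 30 passed the filter on low counts, as did 12224 genes in all. Poly(A) RNA-seq had been made from 6 mouse libraries, 3 titled BirA and 3 titled NC1Bio (written Nc1Bio from here on). Both groups were C57/B6 mice of 4 to 6 weeks, matched for sex and age, and DN cells had been isolated by magnetic removal of CD4+ and CD8+ cells. The BirA mice, labelled wild type, express the bacterial biotin ligase BirA from the Rosa26 locus. The Nc1Bio mice are labelled as overexpressing NFATc1. Besides the ligase they carry an additional *Nfatc1* copy on a bacterial artificial chromosome, whose NFATc1/A product bears a biotin tag at its C terminus. No Cre limits either transgene to DN cells. The labels do not say whether each library came from 1 mouse, and p-values rest on the spread from library to library, which may in part be technical.

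Cells build cholesterol from acetyl-CoA. The mevalonate pathway yields isoprenoid units, which are also used to prenylate proteins, and the sterol pathway joins them into squalene, closes the rings and trims lanosterol to cholesterol. When membranes of the endoplasmic reticulum are low in sterol, SCAP escorts the SREBP proteins to the Golgi, where they are cut to release transcription factors that bind sterol regulatory elements. When sterol is plentiful, the INSIG proteins hold SCAP back. SREBP2 mainly drives sterol genes and SREBP1 fatty acid genes. Dividing and activated T cells draw on both branches to make new membrane.

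The libraries held 11845952 to 15393763 unique gene reads. *Nfatc1*, the gene the transgene adds, was read at 152, 128 and 96.8 CPM (gene reads scaled to a common library size) in BirA and at 573, 597 and 551 CPM in Nc1Bio, a ratio of 4.56 (adjusted p = 0.0141 in edgeR). Among the T lineage markers, *Dntt* stood at 1933 to 2208 CPM in BirA and at 2296 to 2932 CPM in Nc1Bio. Over all libraries *Cd3e* was at 218 to 276 CPM, *Cd4* at 0.834 to 6.85 CPM and *Cd8b1* at 14.5 to 33.7 CPM. The summed CPM of 12 DN thymocyte genes was 17.6% higher in the mean of Nc1Bio, with overlapping groups. Of these genes 9 had estimates above 0, and DESeq2 called 1 higher, the pre-TCR chain *Ptcra* (adjusted p = 0.00513), which edgeR did not call. Its level was low, at 9.46 to 10.7 CPM in BirA and 16.5 to 34.3 CPM in Nc1Bio. The BirA values were thus below those of *Cd8b1*. Genes of other cells varied between libraries. The summed CPM of 9 erythroid genes ran from 17667 to 97664, highest in Nc1Bio replicate 3, and that of 12 granulocyte genes from 417 to 9767, highest in BirA replicate 2. In bulk RNA of this kind fewer cells of a type and less RNA per cell cannot be told apart.

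None of the 30 members was called in either direction by edgeR at an adjusted p under 0.05, and the lowest adjusted p was 0.316, for *Nsdhl*. The background was nearly as empty, with 1 of 12224 genes called higher (0.00818%) and 0% lower. The gene called was *Nfatc1*, which the transgene adds. DESeq2 and limma-voom called no member either, although DESeq2 called 42 genes higher (0.32%) and 284 lower (2.16%) of 13129. In edgeR on all 20818 genes with reads, 11 passed in the higher direction (0.0528%) and 145 in the lower (0.697%), again with no member among them. At an unadjusted edgeR p under 0.05, 5 members had a higher mean in Nc1Bio (*Idi1*, *Nsdhl*, *Hsd17b7*, *Srebf2* and *Acaca*) and 1 a lower mean (*Scd1*), beside 4.31% and 7.66% of all genes tested. The estimates of 26 members were above 0 and of 4 below 0 (*Hmgcs1*, *Ebp*, *Insig2* and *Scd1*), with a median log2 fold change of 0.16. Over all genes tested, 49.6% of estimates were above 0, with a median of -0.0026. All 3 Nc1Bio libraries lay above all 3 BirA libraries for 7 members, 23.3% of the list beside 8.45% of all genes, and below them for 1 member, 3.33% beside 9.98%. Apart from *Scd1*, the 95% intervals of the other 29 members reached no lower than -0.72 and no higher than 1.24 on the log2 scale.

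**Figure D1:**
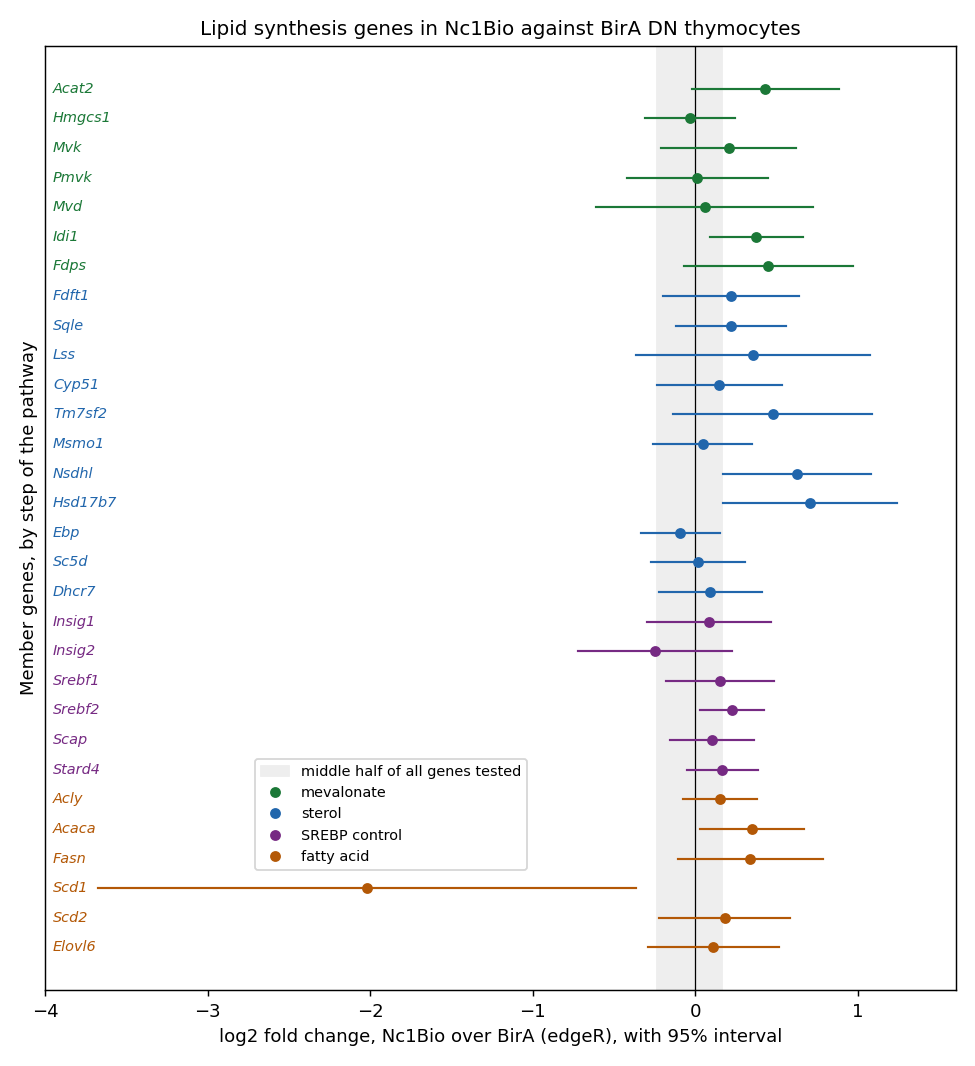
Log2 fold change of each member, Nc1Bio over BirA, from edgeR (points, coloured by step) with its 95% interval (bars, from 3 libraries a group). The grey band spans the lower to the upper quartile of all 12224 genes tested, and most points lie above 0, with *Scd1* alone far to the left at -2.02.

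In the mevalonate pathway 6 of 7 enzymes had estimates above 0, none passed the test, and the median log2 fold change was 0.20. The member with the smallest p and the highest counts was *Idi1* (chr13:8885501-8892451, GRCm38), the isomerase that interconverts the pair of five-carbon isoprenoid units. Its CPM were 117, 151 and 146 in BirA and 174, 195 and 167 in Nc1Bio. The lowest Nc1Bio library was thus above the highest BirA library, and the log2 fold change was 0.37 ± 0.12 (SE, adjusted p = 0.331 in edgeR, 95% interval 0.088 to 0.66). *Acat2*, the cytosolic thiolase that makes acetoacetyl-CoA for the first step, had 24.3, 31.8 and 19.1 CPM in BirA and 31.1, 35.3 and 35.1 in Nc1Bio. Here BirA replicate 2 overlapped the Nc1Bio range, and the log2 fold change was 0.43 ± 0.19 (SE, adjusted p = 0.440 in edgeR). *Fdps* joins isoprenoid units into farnesyl diphosphate, the branch point to sterols. It had 10.8, 16.1 and 12.8 CPM in BirA and 14.7, 17.8 and 21.7 in Nc1Bio, overlapping in 1 library of each group, with a log2 fold change of 0.45 ± 0.22 (SE, adjusted p = 0.474 in edgeR).

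Reads of *Fdps* need care, since between 10.1% and 14.6% of its total gene reads were counted as unique. On total gene reads its CPM were 56.2, 84.5 and 89.9 in BirA and 102, 102 and 106 in Nc1Bio, which do not overlap, and the log2 fold change was 0.43 (adjusted p = 0.403 in edgeR). For *Acat2*, of whose total reads 50.6% to 55.3% were unique, total reads gave 0.42. *Hmgcs1*, the synthase that commits acetoacetyl-CoA to the pathway, overlapped between the groups, with 77.6, 89.1 and 72.9 CPM in BirA and 87.9, 75.02 and 71.6 in Nc1Bio. Its log2 fold change was -0.03, with a 95% interval of -0.31 to 0.24. The kinases *Mvk* and *Pmvk* and the decarboxylase *Mvd*, which phosphorylate and shorten mevalonate, had log2 fold changes of 0.20, 0.013 and 0.06, all with overlapping groups.

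In the sterol pathway 10 of 11 enzymes had estimates above 0 and none passed the test, with a median of 0.22. The largest values belonged to a pair of enzymes that remove the methyl groups at carbon 4 of the sterol ring. *Nsdhl* (chrX:72918557-72958514), the decarboxylating dehydrogenase of that step, had 15.5, 24.3 and 21.9 CPM in BirA and 28.2, 36.0 and 31.2 in Nc1Bio. *Hsd17b7* (chr1:169949535-169969241), the ketoreductase that acts after it, had 7.94, 13.0 and 11.05 CPM in BirA and 16.0, 16.0 and 20.2 in Nc1Bio. In both genes the groups were apart, and BirA replicate 1 was the lowest library. Mean CPM were 54.4% above BirA for *Nsdhl*, with a log2 fold change of 0.63 ± 0.20 (SE, adjusted p = 0.316 in edgeR), and 63.2% above for *Hsd17b7*, with 0.71 ± 0.23 (SE, adjusted p = 0.330 in edgeR). Without BirA replicate 1 the log2 fold changes were 0.46 and 0.53.

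The oxidase of the same demethylation, *Msmo1*, stood at 0.04 on the log2 scale, with 31.0, 38.2 and 31.0 CPM in BirA and 32.5, 35.3 and 35.5 in Nc1Bio. The values of the 3 enzymes of carbon 4 demethylation thus ranged from near 0 to the highest of the list. *Tm7sf2*, a sterol C14 reductase, had 9.24, 6.21 and 11.9 CPM in BirA and 12.8, 12.7 and 12.5 in Nc1Bio, groups that were narrowly apart, and a log2 fold change of 0.48 (adjusted p = 0.512 in edgeR). Only 14.9% to 25% of its total reads were unique, and on total reads the estimate was 0.11 with overlapping groups. *Dhcr7*, which catalyses a last reduction to cholesterol and was the most highly counted enzyme of this step, had 89.9, 95.3 and 72.0 CPM in BirA and 95.7, 99.2 and 79.2 in Nc1Bio, with a log2 fold change of 0.09.

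The remaining sterol enzymes overlapped between the groups. Squalene synthase *Fdft1* and squalene epoxidase *Sqle*, a rate-limiting enzyme of the pathway, both had log2 fold changes of 0.22. The cyclase *Lss*, which closes the rings to form lanosterol, had 0.36 ± 0.31 (SE), with 47.8% to 58.4% of its reads unique. The lanosterol demethylase *Cyp51* had 0.15, the isomerase *Ebp* -0.09 and the desaturase *Sc5d* 0.016. For *Ebp* the 95% interval was -0.34 to 0.15, beside 0.17 to 1.08 for *Nsdhl* and 0.17 to 1.24 for *Hsd17b7*. These intervals nearly meet, and the difference between genes was not tested.

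**Figure D2:**
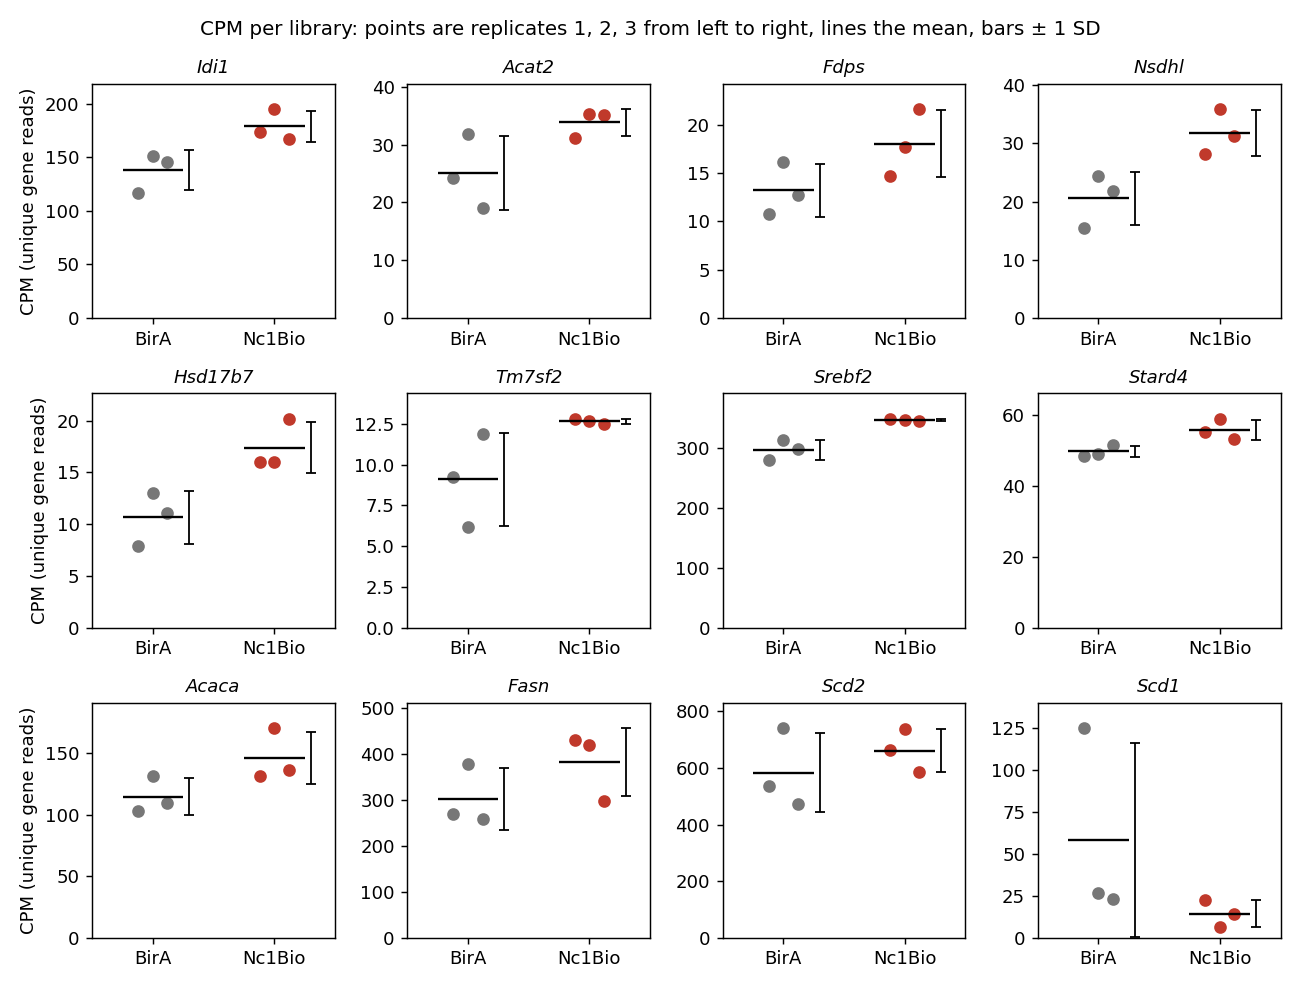
CPM of 12 members (vertical axis, from 0) in each BirA (grey) and Nc1Bio (red) library, with the mean (line) and 1 SD (bar, n = 3 a group). *Idi1*, *Nsdhl*, *Hsd17b7*, *Srebf2* and *Stard4* show groups that are apart, *Acaca* and *Tm7sf2* groups that nearly touch, and *Scd1* 1 BirA library at 125 CPM above all others.

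The SREBP system comprises the transcription factors and the proteins that sense sterol for them. Here 5 of 6 genes had estimates above 0, none passed the test, and the median log2 fold change was 0.13. *Srebf2* (chr15:82147181-82205379) encodes SREBP2 and had the highest counts of this group. It was read at 280, 313 and 299 CPM in BirA and at 349, 347 and 345 CPM in Nc1Bio. The groups were apart, and the mean was 16.8% above BirA. The SD was 16.7 CPM in BirA and 1.71 CPM in Nc1Bio (n = 3 each), a spread that 3 libraries estimate only roughly. The log2 fold change was 0.22 ± 0.085 (SE, adjusted p = 0.383 in edgeR), and leaving out any 1 library moved it between 0.18 and 0.27. *Stard4*, a cytosolic sterol carrier, had 48.6, 49.0 and 51.6 CPM in BirA and 55.1, 59.02 and 53.4 in Nc1Bio. Its groups were also apart, by under 2 CPM, with a log2 fold change of 0.17 ± 0.094 (SE, adjusted p = 0.519 in edgeR).

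*Srebf1*, which encodes SREBP1, had 115, 135 and 101 CPM in BirA and 149, 128 and 113 in Nc1Bio, with a log2 fold change of 0.15 and overlapping groups. *Insig1*, itself a well known SREBP target, had 47.3, 42.4 and 55.9 CPM in BirA and 57.4, 56.3 and 40.7 in Nc1Bio. Both the lowest and the highest value were thus in Nc1Bio, and the log2 fold change was 0.09 with a 95% interval of -0.30 to 0.47. *Insig2*, whose product does the same retention but whose transcription is less dependent on SREBP, had 26.6, 17.3 and 20.8 CPM in BirA and 15.6, 20.7 and 18.1 in Nc1Bio. The log2 fold change was -0.25 with overlapping groups, and BirA replicate 1 was the highest library. *Scap* had a log2 fold change of 0.10, also with overlap.

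In fatty acid synthesis 5 of 6 enzymes had estimates above 0, none passed the test, and the median was 0.17. *Acaca* encodes acetyl-CoA carboxylase 1, which makes malonyl-CoA in the committed step. It had 103, 131.6 and 109 CPM in BirA and 131.7, 170.3 and 137 in Nc1Bio, so the groups were apart by less than 1 CPM. The log2 fold change was 0.35 ± 0.14 (SE, adjusted p = 0.390 in edgeR). *Fasn*, the synthase that builds palmitate, had 268, 378 and 258 CPM in BirA and 429.6, 418 and 297 in Nc1Bio. BirA replicate 2 lay above Nc1Bio replicate 3, and the log2 fold change was 0.34 ± 0.19 (SE, adjusted p = 0.520 in edgeR). *Acly*, which supplies cytosolic acetyl-CoA from citrate, and the elongase *Elovl6* had log2 fold changes of 0.15 and 0.11 with overlapping groups.

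The desaturases *Scd1* and *Scd2*, which put the double bond into stearoyl- and palmitoyl-CoA, both lie on chromosome 19 and had very different values. *Scd2* (chr19:44293676-44306864) was the member with the highest level per exon length, 107 CPM per kb in BirA and 121 in Nc1Bio. Its CPM were 537, 739.9 and 473 in BirA and 662, 737 and 586 in Nc1Bio, which overlap, with a log2 fold change of 0.18. *Scd1* (chr19:44394451-44407709) had 125, 26.7 and 23.3 CPM in BirA and 22.6, 6.45 and 14.2 in Nc1Bio. All Nc1Bio libraries were below all BirA libraries, but the highest of them, 22.6, was close to the lowest BirA value, 23.3, and BirA replicate 1 stood far above every other library. The log2 fold change was -2.02 ± 0.71 (SE, adjusted p = 0.361 in edgeR, 95% interval -3.67 to -0.36). Without BirA replicate 1 it was -0.80, and without Nc1Bio replicate 1 it was -2.50.

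As a share of *Scd2* reads, *Scd1* unique reads came to 23.3%, 3.61% and 4.92% in BirA and 3.41%, 0.875% and 2.42% in Nc1Bio. Markers of other cells are given beside these values. Of 11 tested B cell genes 10 had estimates below 0, with a median of -1.66. In 9 of the 11 the groups were apart with Nc1Bio lower, the same number had an unadjusted edgeR p under 0.05, and DESeq2 called 6 lower while edgeR called none. The summed CPM of the B cell list was 411 to 788 in BirA, highest in BirA replicate 1, and 374 to 596 in Nc1Bio, highest in Nc1Bio replicate 1, while *Iglc1* was at 0 in all libraries. The mean of this sum changed by only -13.7%, and the 1 gene with an estimate above 0 stood at 0.34. For macrophage and dendritic cell markers 11 of 11 tested genes had estimates below 0, median -0.91. Their sums were 297 to 1302 in BirA, highest in BirA replicate 2, and 432 to 833 in Nc1Bio, highest in Nc1Bio replicate 3. For NK and innate lymphoid markers 8 of 8 were below 0, median -1.99, and DESeq2 called 2 of these lower. Their sums were 690 to 703 in BirA, highest in BirA replicate 1, and 328 to 487 in Nc1Bio, highest in Nc1Bio replicate 3. The part of such cells in the *Scd1* values was not tested.

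**Figure D3:**
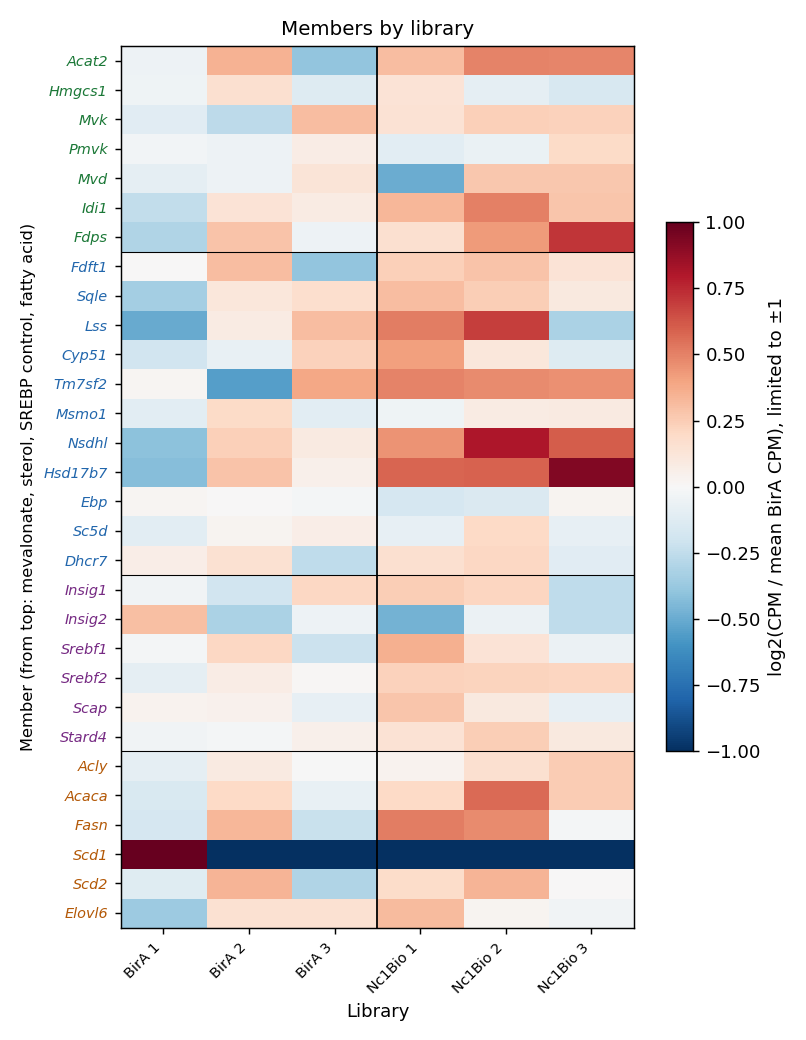
Each member (rows, by step) in each library (columns) as log2 of its CPM over the mean BirA CPM, with colours limited to ±1. BirA replicate 1 was the lowest of the 6 libraries for 14 of 30 members and BirA replicate 3 for 7, while Nc1Bio replicates 1 and 2 were each the highest for 9.

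Many single values leaned on 1 library. With each library left out in turn, 21 of the 30 members kept their sign, but 16 of these moved by over 1.5 times at one or both ends of the range. The other 5 were *Idi1* (0.27 to 0.45), *Nsdhl* (0.46 to 0.77), *Hsd17b7* (0.53 to 0.88), *Srebf2* (0.18 to 0.27) and *Stard4* (0.13 to 0.20). BirA replicates 2 and 3 pulled opposite ways on several genes. Without replicate 3 the log2 fold change of *Fdft1* was 0.060 and that of *Scd2* 0.054, and without replicate 2 they were 0.40 and 0.39. *Acat2* ran likewise from 0.27 to 0.64 and *Fasn* from 0.24 to 0.54, while *Mvk* (0.091 to 0.39) and *Tm7sf2* (0.26 to 0.72) were lowest without replicate 2 and highest without replicate 3. *Sqle* had 0.073 without BirA replicate 1 and 0.31 without BirA replicate 3, and *Insig2* -0.072 without BirA replicate 1 and -0.38 without BirA replicate 2. Nc1Bio libraries decided others. *Lss* had 0.16 without Nc1Bio replicate 2 and 0.60 without Nc1Bio replicate 3, *Srebf1* 0.048 without Nc1Bio replicate 1 and 0.27 without BirA replicate 2, and *Scap* 0.013 without Nc1Bio replicate 1 and 0.19 without Nc1Bio replicate 3. *Fdps* (0.30 to 0.62) and *Acly* (0.10 to 0.21) were lowest without Nc1Bio replicate 3, *Acaca* (0.23 to 0.46) without Nc1Bio replicate 2, and *Ebp* ran from -0.15 (Nc1Bio replicate 3 left out) to -0.051 (Nc1Bio replicate 1 left out).

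Per kb of annotated exon, the mean BirA levels of the members on unique reads ran from 1.27 CPM per kb for *Lss* to 107 for *Scd2*. After *Scd2* came *Acly* with 77.5, *Srebf2* with 41.4, *Idi1* with 39.3 and *Fasn* with 27.5 CPM per kb. *Srebf1* stood at 20.8, so on unique reads transcripts of both SREBP genes were among the 6 highest of the list. Unique reads place members with many shared reads low in this order. *Fdps*, with 10.1% to 14.6% of its total reads unique, stood at 3.14 CPM per kb. The order on total reads was not worked out and can differ. *Hsd17b7*, with the largest estimate above 0, was near the bottom of the order at 2.09 CPM per kb. Counts behind the values ran from 62 unique reads in the sparsest member and library to 11556 in the richest.

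Summed over its genes, each step had a higher mean in Nc1Bio, by 11.7% to 19.0%. The 7 mevalonate genes summed to 268, 325 and 298 CPM in BirA and to 347, 369 and 343 CPM in Nc1Bio, with no overlap. The 6 SREBP genes summed to 663, 702 and 662 CPM in BirA and to 797, 763 and 704 CPM in Nc1Bio, also without overlap although 702 and 704 nearly meet. The sterol genes, at 393, 458 and 433 against 496, 503 and 445 CPM, overlapped. So did the fatty acid genes, at 1446, 1755 and 1313 against 1712, 1827 and 1558 CPM, of which *Scd2* alone gave 473 to 739.9 CPM. The fatty acid difference, 194 CPM in the mean, was 98.4 CPM without BirA replicate 3 and 319.6 CPM without BirA replicate 2. With any 1 library left out the differences of the other sums stayed above 0, at 41.8 to 70.4 CPM for mevalonate, 36.1 to 71.9 for sterol and 58.0 to 104.8 for the SREBP genes.

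Beside these sums stood the proliferation list, 20 genes of DNA replication and mitosis, of which 20 had estimates above 0 (median 0.24). In unadjusted terms 8 of these had a p under 0.05, DESeq2 called 1, *Cdc20*, which activates the anaphase-promoting complex, and edgeR called none. Its summed CPM was 5749, 6654 and 7006 in BirA and 7533, 7564 and 8097 in Nc1Bio, 19.5% higher in the mean and without overlap. BirA replicate 1 was the lowest library here as for the mevalonate and sterol sums. The part of dividing cells in the members' values was not tested.

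**Figure D4:**
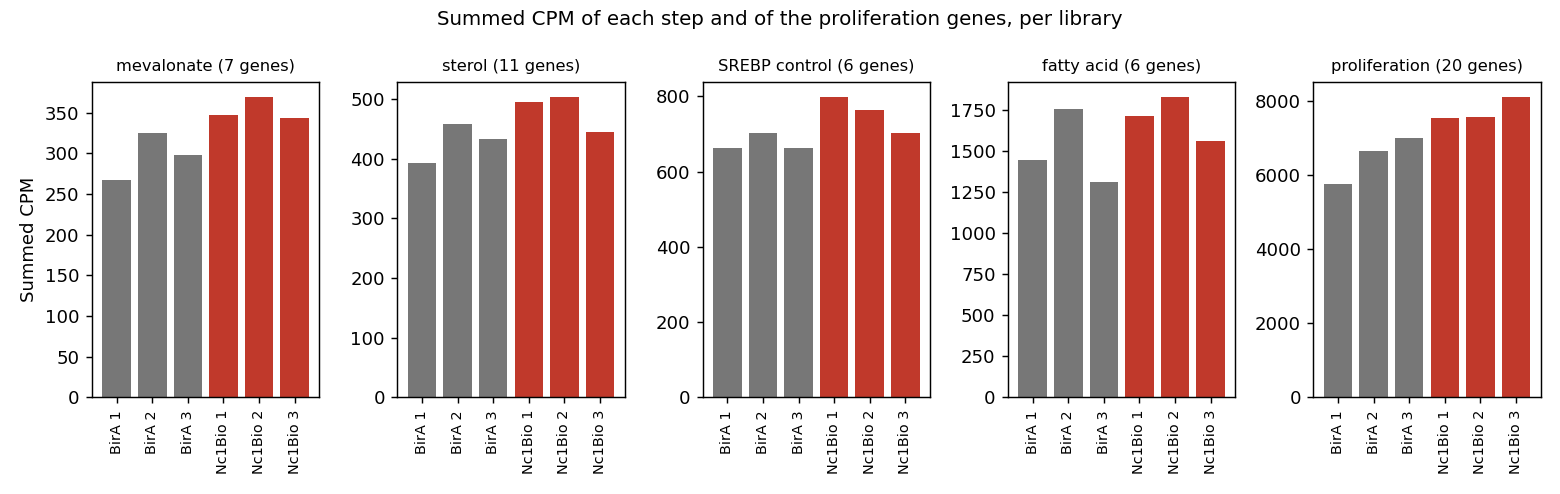
Summed CPM (bars from 0) of the 4 steps and of the 20 proliferation genes in each BirA (grey) and Nc1Bio (red) library. The mevalonate, SREBP control and proliferation sums do not overlap between groups, and the sterol and fatty acid sums do.

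Other genes of the pathway were read from lists drawn up beside the members, and edgeR called none of them. Of 23 tested enzymes of other synthesis steps, 14 had estimates above 0, with a median of 0.036, and 4 had an unadjusted p under 0.05, all above 0. Among them were *Acsl5*, an acyl-CoA synthetase (0.30), *Fads2*, the delta-6 desaturase (0.44), and *Acat1*, the mitochondrial thiolase (0.30). Of 12 genes of SREBP processing and turnover, 7 were above 0, with a median of 0.052. *Lpin1*, a phosphatidate phosphatase, was at -0.51 and *Ubxn8*, a protein of the endoplasmic reticulum, at 0.39. Fatty acid oxidation gave 5 of 11 above 0, a median of -0.0011 and no gene with an unadjusted p under 0.05 in edgeR or an adjusted one in DESeq2.

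Genes of LXR and sterol efflux, the programme that cells use when sterol is in excess, had estimates below 0 for 9 of 10 tested genes, with a median of -0.14. *Mylip*, an LXR target and ubiquitin ligase for lipoprotein receptors, had 48.4, 37.1 and 20.8 CPM in BirA and 18.4, 13.7 and 18.0 in Nc1Bio. Its log2 fold change was -1.08, which DESeq2 called (adjusted p = 0.00731) and edgeR did not (adjusted p = 0.263). *Abca1*, the cholesterol exporter, had 61.9, 21.1 and 18.1 CPM in BirA and 14.3, 6.52 and 6.25 in Nc1Bio, a log2 fold change of -1.90 (adjusted p = 0.279 in edgeR), with -1.12 when BirA replicate 1 was left out. *Rxra*, the partner receptor of LXR, was at -0.59. For *Abca1* as for *Scd1*, BirA replicate 1 held by far the highest value and Nc1Bio replicate 1 the highest of its group. Among markers of other cells, these libraries were also the highest of their groups for *Cd22*, *Csf1r*, *Gzmb* and *Klrb1c*. They were not both highest for *Ms4a1*, *Vpreb3*, *Itgax*, *Adgre1* or *Gzma*. *Scd1* is a known LXR and SREBP1 target, but the part of LXR in its values was not tested. The marker lists given beside *Scd1* had their estimates below 0 here too, for 11 of 11 macrophage and dendritic genes, 10 of 11 B cell genes and 8 of 8 NK and innate lymphoid genes. The part of such cells in the LXR values was not tested.

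Promoter letters were read to see which motifs the members share, as RefSeq gives them for GRCm38.p6. Of the 30 members 24 had an entry, with 32 windows of the 250 bases before the start of transcription. The NF-Y box CCAAT, searched on both strands, was found for 19 of these 24 members, 79.2%, beside 37.5% of 27025 genes with a window and 40.8% of 9517 tested genes. By step it was found for 9 of 9 sterol enzymes, 5 of 6 mevalonate enzymes, 4 of 5 SREBP genes and 1 of 4 fatty acid enzymes. NF-Y is a known partner of SREBP at sterol gene promoters. The sterol regulatory element, searched as TCACNCCAC on both strands, matched 1 of the 24 members, *Hmgcs1*, beside 1.22% of genes. Only exact matches to this pattern were counted. A stretch that departs from it by a single base was not. Such stretches occur in the *Nsdhl*, *Hsd17b7* and *Srebf2* promoters below, so members without a match may hold variant elements. Their share among other genes was not counted. The NFAT core GGAAA, on both strands, was found for 14 of 24 members, 58.3%, beside 58.8% of genes. The reverse complement of CCAAT ends in the letters GG with which GGAAA begins, so these motifs can share bases, and TCACNCCAC can share its last C with CCAAT. A match is a description of these windows, not a measured binding site.

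4 promoters are shown, read 5′ to 3′ along the gene's strand up to the RefSeq start or to the first base of the gene as the deposited tables bound it, whichever comes first, with CCAAT (here always as its reverse complement) and the *Hmgcs1* sterol element in capitals. *Hmgcs1* is the member with both motifs. *Nsdhl*, *Hsd17b7* and *Srebf2* were chosen after their values were seen, from the members with low p that hold CCAAT. *Idi1* also holds it, but both copies lie inside the gene as the deposited tables bound it, so its stretch is not shown.
Hmgcs1, chr13:119690101-119690350, plus strand: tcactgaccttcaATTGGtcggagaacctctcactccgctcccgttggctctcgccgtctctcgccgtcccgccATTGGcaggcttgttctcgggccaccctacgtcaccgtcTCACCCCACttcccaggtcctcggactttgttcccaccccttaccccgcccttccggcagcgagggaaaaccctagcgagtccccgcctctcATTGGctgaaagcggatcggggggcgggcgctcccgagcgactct
Nsdhl, chrX:72918271-72918520, plus strand: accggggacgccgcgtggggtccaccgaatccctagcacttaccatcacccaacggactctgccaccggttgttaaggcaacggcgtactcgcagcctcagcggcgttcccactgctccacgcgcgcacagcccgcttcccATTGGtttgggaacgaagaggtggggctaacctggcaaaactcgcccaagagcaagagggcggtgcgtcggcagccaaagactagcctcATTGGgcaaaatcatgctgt
Hsd17b7, chr1:169969242-169969455, minus strand: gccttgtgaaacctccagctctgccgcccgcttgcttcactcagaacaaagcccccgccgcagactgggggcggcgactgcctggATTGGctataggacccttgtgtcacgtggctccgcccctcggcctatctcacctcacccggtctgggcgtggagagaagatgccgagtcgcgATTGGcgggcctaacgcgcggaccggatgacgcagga
Srebf2, chr15:82147019-82147180, plus strand: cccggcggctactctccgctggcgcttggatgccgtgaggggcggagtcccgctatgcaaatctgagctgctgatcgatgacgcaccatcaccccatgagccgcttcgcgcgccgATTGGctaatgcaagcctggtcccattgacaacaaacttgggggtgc
In these stretches CCAAT occurred 3 times for *Hmgcs1*, 2 times each for *Nsdhl* and *Hsd17b7* and 1 time for *Srebf2*. For *Hsd17b7* a further copy, 12 to 8 bases before the RefSeq start, lay in the 36 bases that were trimmed. Since the stretches differ in length, their counts are not directly comparable. No relation of motif number to log2 fold change was tested.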

How the data were processed

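Members and lists were chosen with earlier results of these data known. Per the labels, DN thymocytes were enriched by magnetic depletion and poly(A) libraries were made from 50 ng total RNA. The methods of the study name cutadapt (adapter and first 10 bases), STAR 2.7, GRCm38 and featureCounts for reads of 59 bases. The deposited tables do not have the layout of featureCounts, so the counting program remains unnamed here. The authors deposited raw counts per gene, as unique and as total reads over genes and over exons, with RPKM and TPM columns that were not used here. The use of strand is not stated, so genes that overlap others are uncertain.

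Unique gene reads (64.1% to 76.0% of total) were normalised by TMM after filterByExpr and tested with edgeR 4.0.16 (quasi-likelihood, legacy mode, genotype as the only term, R 4.3.3), with Benjamini-Hochberg adjustment over 12224 genes and calls at 0.05. DESeq2 1.42.0 and limma-voom (limma 3.58.1) were alternatives, as were 3 other count columns. CPM use TMM-scaled library sizes. The SE is the size of the log2 fold change over the square root of F, and intervals (95%) use the degrees of freedom of the fit. The steps were tested on simulated data. No pair of libraries agreed within sampling noise. Counts are reads, not molecules, and depth was 11845952 to 15393763 reads per library.

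All 30 members are named by step, with values per library for the 3 of lowest edgeR p and the highest CPM in each step and for Insig1, Srebf1 and Srebf2, and up to 3 genes of lowest p for each other list used. Msmo1 and Hmgcs1 values were added after they were seen. Promoters come from RefSeq (GRCm38.p6), trimmed where the deposited gene bounds begin.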

Additional observations from a re-analysis of the deposited data

How the results depend on the processing

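No member was called in any alternative. Of the 30 members, 21 kept the sign of their log2 fold change in all 17 fits beside the reported one. Counts over all genes moved: without a filter on low counts 11 genes were called higher and 145 lower, by DESeq2 42 and 284, and at the study's DESeq2 threshold 16 and 167. Leaving out 1 library at a time gave 0 to 1 genes higher and 0 to 1 lower. Whether replicate numbers pair the libraries cannot be settled with 3 libraries a group. Deviations of same-numbered libraries correlated at 0.34, 0.11 and -0.16, and not every library correlated best with its own number. With the number as a replicate block 1 gene was called higher and 1 lower, and no member. Without both BirA replicate 1 and Nc1Bio replicate 3, 2 genes were called lower, and the log2 fold changes of *Hmgcs1* (0.0058), *Pmvk* (-0.10), *Mvd* (-0.11) and *Msmo1* (-0.033) turned sign. Leaving out 1 library at a time turned the sign of 9 members, with ranges of -0.12 to 0.058 for *Hmgcs1*, -0.085 to 0.075 for *Pmvk*, -0.063 to 0.27 for *Mvd*, -0.00038 to 0.28 for *Cyp51*, -0.0081 to 0.16 for *Msmo1*, -0.085 to 0.069 for *Sc5d*, -0.017 to 0.19 for *Dhcr7*, -0.00079 to 0.23 for *Insig1* and -0.041 to 0.19 for *Elovl6*. The median of the mevalonate enzymes ranged from 0.091 (without BirA replicate 2) to 0.27, that of the SREBP genes from 0.031 (without Nc1Bio replicate 1) to 0.22, that of the sterol enzymes from 0.13 to 0.28 and that of the fatty acid enzymes from 0.12 to 0.30. The cause was not tested. Unique reads were fewest for *Mvd*, at 62 to 116 a library, against 6809 to 11556 for *Scd2*. Of the total reads of *Mvd*, 23.2% to 37.2% were unique, and total reads gave a log2 fold change of 0.15.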
